A study of Mus musculus with 10 samples.

Results

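Complement is a set of plasma and membrane proteins that tag and lyse cells and call in leukocytes. The classical arm starts when C1q binds antibody or damaged surfaces, the lectin arm when collectins or ficolins bind sugars, and the alternative arm amplifies C3 cleavage on any unprotected surface. All arms lead to C3 and C5, whose fragments act on receptors of leukocytes, and to the membrane attack complex of the terminal components, while soluble and membrane inhibitors hold the cascade in check. Most circulating components are made in the liver, and kidney tubule cells, fibroblasts and macrophages also transcribe some of them.

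The genes described here are 39 complement components, receptors and regulators, chosen by symbol. For 37 of them the array had a row whose annotation gave that symbol alone, out of 30142 genes measured in this way. C3 and Cfd had no such row and were not analysed here. The members comprise 7 genes of the classical arm, 7 of the lectin arm, 2 measured of the alternative arm, 7 of the terminal arm, 5 receptors and 9 inhibitors.

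Whole-kidney RNA of 5-week-old mice was hybridised to whole-transcript arrays, with 5 control kidneys and 5 kidneys lacking Lkb1 (gene symbol Stk11) in tubule cells. The knockouts carried floxed Lkb1 alleles and the KspCre transgene, in which the Cdh16 promoter drives Cre in tubules, and the controls were Cre-negative littermates with Lkb1flox/+ or Lkb1flox/flox alleles. The strain label is C57Bl/6N, although the floxed line had a mixed background, and Cre itself cannot be told apart from loss of Lkb1. The sample titles say knockdown and the series' design text names MDCK cells, whereas the protocols describe a Cre knockout in mouse kidney, which is followed here. A value is a log2 expression value made by robust multi-array averaging (RMA), so a difference of 1 is a doubling, and a gene is said to rise or fall where the adjusted p of limma was under 0.05.

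Stk11 checked the labels: it was 84.1% of the control level in the knockouts (95% interval of the ratio 0.783 to 0.903, adjusted p = 0.00749), and the groups did not overlap. The controls lay between 9.40 and 9.48 and the knockouts between 9.07 and 9.31, with knockout 5 the highest of the latter. The array of knockout 5 stood apart: its mean correlation was 0.9963 with the other knockouts and 0.9962 with the controls, whereas the other 9 arrays correlated at 0.9966 to 0.9974 with their own group and at 0.9927 to 0.9956 with the other. Array medians ranged from 5.35 to 5.42. Markers of kidney cells gave strong signals in both groups, as with Umod of the thick ascending limb (13.16 and 12.70) and Lrp2 of the proximal tubule (12.78 and 12.57). The array gives 1 value per gene in a whole kidney, so fewer cells of a type and less RNA per cell cannot be told apart.

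The promoters of some members that moved together are shown first, as the 250 bases before the annotated start site, read 5′ to 3′ on the gene's own strand (RefSeq, GRCm38.p6). For C1qc the start site used lies inside the gene span given below, which ends at 136892936, so the last bases shown fall within that span. C1qb and C1qc are shown because they are neighbours that rose together, C7 because it had the largest difference of all members, and C3ar1 because it was the receptor that rose. Capitals mark matches, on either strand, to TATAAA (the TATA box), GAGGAAG (bound by ETS factors such as PU.1), the NF-kappaB type (GGG, any 3 bases, then TTCC) or the interferon response element type (GAAA, any 2 bases, then GAAA). Matches to different motifs can share bases, and none of those shown do.
C1qb, chr4:136886201-136886450, minus strand: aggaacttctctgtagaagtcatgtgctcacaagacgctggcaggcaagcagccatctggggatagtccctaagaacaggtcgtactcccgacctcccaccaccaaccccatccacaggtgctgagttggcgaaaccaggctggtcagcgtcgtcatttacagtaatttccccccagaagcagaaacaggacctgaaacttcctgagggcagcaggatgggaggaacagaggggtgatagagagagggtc
C1qc, chr4:136892915-136893164, minus strand: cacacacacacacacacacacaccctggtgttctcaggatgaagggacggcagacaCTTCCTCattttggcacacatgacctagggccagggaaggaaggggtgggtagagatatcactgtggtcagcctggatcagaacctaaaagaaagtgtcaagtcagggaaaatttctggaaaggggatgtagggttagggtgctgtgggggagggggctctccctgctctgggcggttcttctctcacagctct
C7, chr15:5063774-5064023, minus strand: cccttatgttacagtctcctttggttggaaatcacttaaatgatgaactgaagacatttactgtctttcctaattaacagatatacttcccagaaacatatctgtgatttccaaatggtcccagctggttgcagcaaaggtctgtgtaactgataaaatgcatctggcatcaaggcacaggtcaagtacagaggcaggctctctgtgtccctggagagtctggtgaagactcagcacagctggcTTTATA
C3ar1, chr6:122856158-122856407, minus strand: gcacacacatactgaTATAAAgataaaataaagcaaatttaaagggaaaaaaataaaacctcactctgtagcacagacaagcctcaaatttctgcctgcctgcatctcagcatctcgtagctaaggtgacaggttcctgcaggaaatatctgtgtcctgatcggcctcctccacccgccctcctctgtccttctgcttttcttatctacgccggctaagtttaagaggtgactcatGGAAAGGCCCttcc

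Of the 37 measured members, 28 had a promoter in the RefSeq table, 8 of them among those that rose or fell. The letters TATAAA were found in 3 of the 28 (C7, C3ar1 and Hc), against 12.4% of all 32851 promoters of that length. Counted from the start site, the match lay at -6 to -1 in C7 and at -235 to -230 in C3ar1. Whether either works as a TATA box was not tested. The ETS motif was found in C1qc, C5ar2 and Fcna, against 10.6% of all promoters. The NF-kappaB motif was found in C3ar1 and Cd59b (4.65% of all promoters) and the interferon motif in Cd59a and Colec11 (2.98%). A match describes these letters only, and no motif was shared by C1qb and C1qc in this window.

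Knockout kidneys had higher levels of the C1q chains, C1ra, C4b, the terminal components C7 and C6, the receptor C3ar1 and the inhibitors Cfi, Serping1 and Clu. Most lectin-arm genes, Cfb, C2 and the membrane inhibitors did not rise. In all, 13 of 37 members rose (35.1%), against 5.35% of all 30142 genes, and 1 member, Cd59a, fell, against 2.67% of all genes. Together 14 members passed in either direction, against 8.03% of all genes. The other 23 did not pass, with log2 differences from -0.45 to 0.25. The median log2 difference was 0.03 over the members and -0.03 over all genes, since the members that rose stood beside many that moved little. The rise was at least a doubling, with adjusted p under 0.05, for 4 members, C7, Cfi, C1qb and Serping1, as for 0.302% of all genes. Over all genes 1614 rose and 806 fell (66.7% of calls higher), and after quantile normalisation of the values 1619 rose and 1299 fell (55.5% higher), with 13 members rising under both. Without knockout 5, 1942 genes rose and 1470 fell, and 14 members rose and 2 fell. The 13 members that rose all passed without it, with larger log2 differences, from 0.28 for Cfp to 2.93 for C7, and Cd59a fell by 0.21 (adjusted p = 0.0377).

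**Figure D1:**
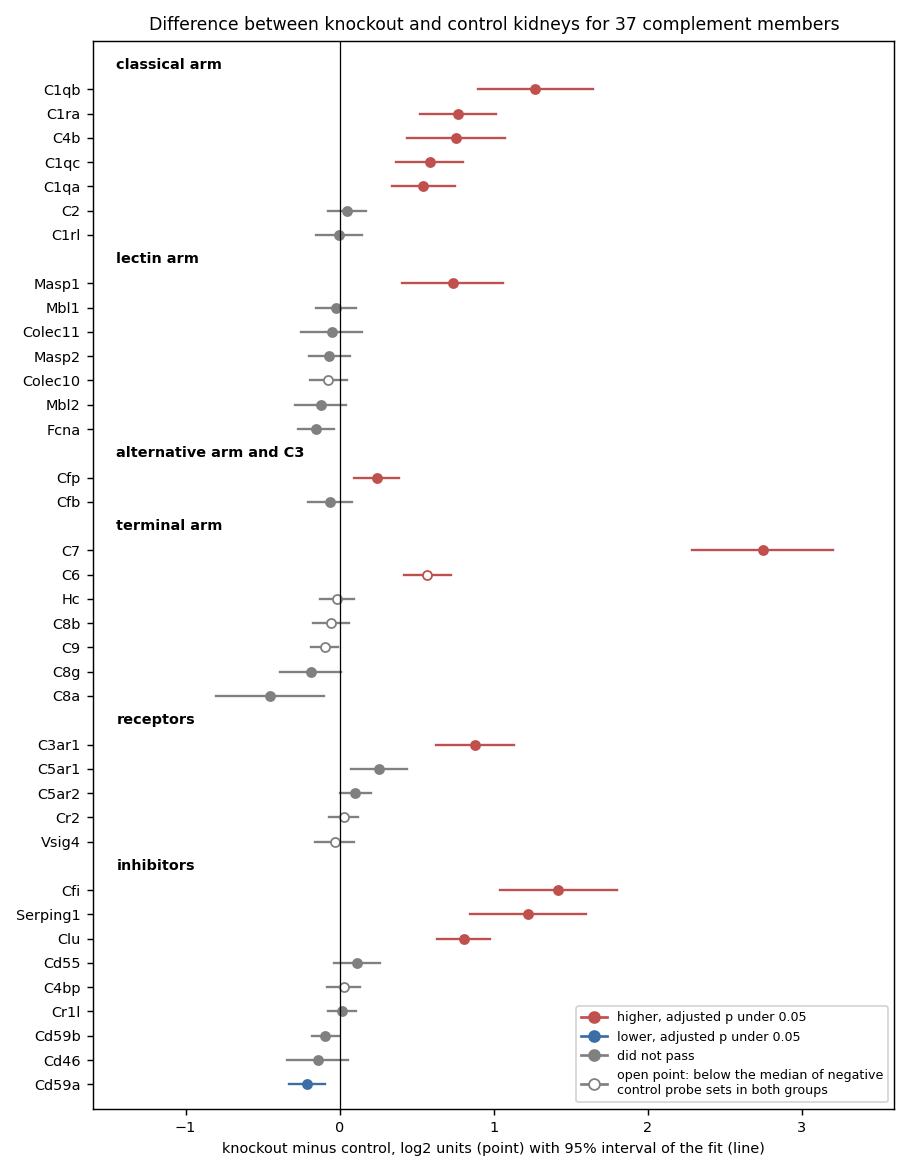
Knockout minus control difference in log2 units (horizontal axis) for each of 37 complement members, grouped by arm, with the 95% interval of the fit. Red points rose (13), the blue point fell (Cd59a), grey points did not pass, and open points are genes whose mean was under the negative-control median in control and knockout alike. C7 stands apart at 2.75.

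The classical arm had the largest share of members that rose, 5 of 7. C1qb, a chain of the recognition molecule C1q, measured 7.43, 7.45, 7.38, 7.12 and 7.28 in controls 1 to 5 and 8.77, 8.93, 8.99, 8.40 and 7.91 in knockouts 1 to 5. Every knockout thus lay above every control, with knockout 5 the nearest to them. The rise was 2.41-fold (95% interval 1.86 to 3.12, log2 difference 1.27, SE 0.17, adjusted p = 0.00109). The partner chains C1qa and C1qc also rose, by log2 differences of 0.54 (SE 0.09, adjusted p = 0.00460) and 0.58 (SE 0.10, adjusted p = 0.00457). C1qa measured 6.95, 6.66, 6.83, 6.75 and 6.59 in controls 1 to 5 and 7.51, 7.30, 7.49, 7.13 and 7.06 in knockouts 1 to 5. C1qc went from 6.65, 6.51, 6.83, 6.51 and 6.65 to 7.40, 7.25, 7.44, 7.10 and 6.87. Neither overlapped between groups, although the lowest knockout of C1qc was close to the highest control. The C1q genes lie together within 18719 bases of chromosome 4 (C1qb at 136880126 to 136886200, C1qc at 136889801 to 136892936 and C1qa at 136895916 to 136898844, mm10), and the promoters of C1qb and C1qc are those printed above.

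C1ra, a protease of the C1 complex that is activated when C1q binds, also rose. Controls 1 to 5 measured 7.31, 7.27, 7.32, 7.26 and 7.09, and knockouts 1 to 5 measured 8.17, 8.18, 8.29, 7.84 and 7.60. The groups were apart, and the difference was 1.70-fold (95% interval 1.44 to 2.02, log2 difference 0.77, SE 0.11, adjusted p = 0.00175). Its near-identical paralogue C1rb gave much the same values (1.77-fold, adjusted p = 0.00162), and signal shared between the pair makes each value uncertain. C1rl, a C1r-like protease gene that ends 1977 bases before C1ra on chromosome 6, measured 8.02 ± 0.10 in controls and 8.02 in knockouts (log2 difference 0.00, 95% interval -0.15 to 0.15). Knockout 5 was the highest knockout for C1rl and the lowest for C1ra. The within-kidney difference between C1ra and C1rl was 0.77 larger in knockouts. This pair and those compared below were chosen after their values were seen, so no p is given for them.

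C4b, whose product is cleaved by C1s and by the lectin proteases, rose 1.69-fold (95% interval 1.35 to 2.11, SE 0.15 in log2 units, adjusted p = 0.00847). In controls 1 to 5 it measured 6.50, 6.18, 6.40, 6.40 and 6.38, and in knockouts 1 to 5 it measured 7.53, 7.07, 7.51, 6.72 and 6.81. Knockouts 1 and 3 were the highest and knockouts 4 and 5 were nearest to the controls, with no overlap. Its near-identical neighbour C4a, which can share signal with it, was 1.31-fold higher (adjusted p = 0.0180). C2, the partner of C4b in the classical C3 convertase, lies 118699 bases from C4b on chromosome 17 and did not pass (7.08 ± 0.11 and 7.13, log2 difference 0.04, 95% interval -0.08 to 0.17). Its 2 rows lay far apart, at 8.47 and 5.69 in controls, and differed by 0.12 and -0.03 between groups. C2 did not pass on the brighter row alone either (adjusted p of limma = 0.327). The change of C4b exceeded that of C2 by 0.71 in log2 units.

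In the lectin arm 1 of 7 members rose. Masp1, a protease bound to mannose-binding lectin, measured 6.54, 6.64, 6.50, 6.30 and 6.21 in controls 1 to 5 and 7.26, 7.39, 7.55, 7.06 and 6.60 in knockouts 1 to 5. Knockout 5 fell just below control 2, so the groups overlapped by that kidney alone. The rise was 1.66-fold (95% interval 1.33 to 2.09, log2 difference 0.73, SE 0.15, adjusted p = 0.0108, exact permutation p = 0.0159). Masp2, the protease that cleaves C4 and C2 in this arm, differed by -0.07 (95% interval -0.20 to 0.07), and the change of Masp1 exceeded it by 0.80.

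The recognition molecules of the lectin arm did not pass. The ficolin gene Fcna came nearest, at 6.51 ± 0.09 in controls and 6.36 in knockouts (log2 difference -0.15, SE 0.05, adjusted p = 0.0946), and it passed as a fall after quantile normalisation (adjusted p = 0.0311) and with array medians set equal (adjusted p = 0.0495). The mannose-binding lectin genes Mbl1 and Mbl2 differed by -0.02 and -0.12, and the collectin gene Colec11 by -0.05. Colec10 lay in the background, at 4.56 and 4.48. Background here means a group mean under the median of 5222 negative control probe sets, which was 5.23 in controls and 5.22 in knockouts. All 6 members of the arm that did not pass had negative differences, from -0.15 to -0.02, where the median over all genes was -0.03.

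Of the alternative arm, Cfb and Cfp were measured. Cfb, the protease precursor of the alternative C3 convertase, gave a strong signal and did not pass. Controls 1 to 5 measured 10.90, 10.61, 10.74, 10.77 and 10.84, and knockouts 1 to 5 measured 10.82, 10.56, 10.62, 10.69 and 10.83 (log2 difference -0.07, 95% interval -0.21 to 0.08). The groups covered almost the same range. Cfp, or properdin, which stabilises that convertase and is made largely by leukocytes, went from 6.54, 6.24, 6.47, 6.39 and 6.38 to 6.76, 6.68, 6.70, 6.59 and 6.48. Knockout 5 lay below control 1, and the difference was 1.18-fold (95% interval 1.07 to 1.31, SE 0.07 in log2 units, adjusted p = 0.0454, exact permutation p = 0.0159). This call was lost on leaving out any 1 kidney other than control 1 or knockout 5 (adjusted p = 0.0649 to 0.107).

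**Figure D2:**
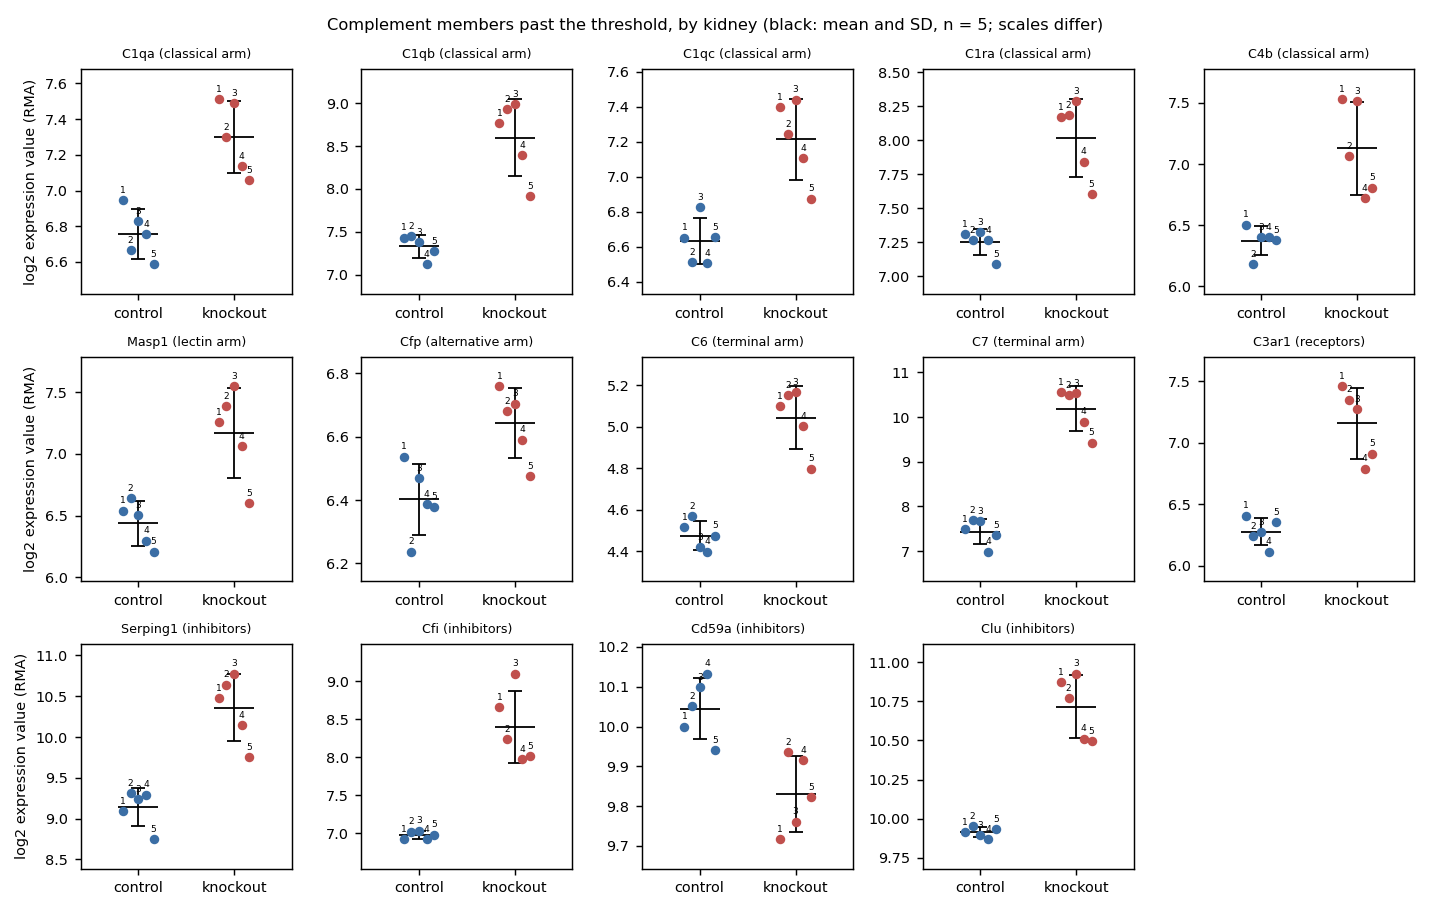
Log2 expression value (vertical axis, scales differ between panels) of each complement member that rose or fell, in control kidneys (blue) and knockout kidneys (red); numbers give the replicate, and black marks give the mean and SD of 5 kidneys. All 5 knockouts lie above all 5 controls for 11 members, Masp1 and Cfp overlap, and the knockouts of Cd59a lie below the controls.

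The terminal arm held the largest rise among the members and also genes at background. C7, which anchors the nascent attack complex in the membrane, measured 7.49, 7.69, 7.67, 6.98 and 7.36 in controls 1 to 5 and 10.56, 10.50, 10.53, 9.90 and 9.43 in knockouts 1 to 5. The lowest knockout was well above the highest control. The rise was 6.71-fold (95% interval 4.89 to 9.21, log2 difference 2.75, SE 0.21, adjusted p = 3.1e-05). C6, which binds C5b before C7 does, lies 183704 bases from C7 on chromosome 15 and moved the same way at a far lower signal. It went from 4.52, 4.57, 4.42, 4.40 and 4.48 to 5.10, 5.15, 5.17, 5.00 and 4.80, without overlap. Its log2 difference was 0.57 (SE 0.07, adjusted p = 6.46e-04), but both group means lay under the negative-control median (they exceeded 32.4% and 46.0% of those probe sets), so no fold is given.

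None of the other terminal components passed, and all 5 had negative differences, where the median over all genes was also negative (-0.03). C8a, the gene of the pore-forming alpha chain of C8, measured 7.79, 7.71, 7.44, 7.06 and 7.65 in controls 1 to 5 and 7.34, 6.83, 6.76, 6.94 and 7.50 in knockouts 1 to 5. Knockouts 1 and 5 lay above control 4, so the groups overlapped, and the log2 difference was -0.45 (95% interval -0.80 to -0.10, adjusted p = 0.109). It passed as a fall without control 4 (adjusted p = 0.0374) or without knockout 5 (adjusted p = 0.0329). C8g, the lipocalin chain of C8, differed by -0.19 (95% interval -0.39 to 0.01, adjusted p = 0.234). Hc, the mouse gene of C5, C8b and C9, the component that lines the pore, all lay in the background in both groups, with means from 3.39 to 4.86. C9 nevertheless showed no overlap, from 3.43 to 3.56 in controls and from 3.37 to 3.42 in knockouts, a pattern of 3.50% of all genes (log2 difference -0.10, adjusted p = 0.163). The change of C7 exceeded that of C8a by 3.20, these being the largest and the most negative differences among the members.

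Among the receptors, C3ar1 rose. This receptor for the C3a fragment, carried by myeloid cells, measured 6.41, 6.24, 6.28, 6.12 and 6.36 in controls 1 to 5 and 7.46, 7.35, 7.27, 6.79 and 6.91 in knockouts 1 to 5. The groups were apart, with knockouts 4 and 5 nearest to the controls (1.84-fold, 95% interval 1.54 to 2.19, log2 difference 0.88, SE 0.12, adjusted p = 0.00100). C5ar1, the C5a receptor, had controls from 5.45 to 5.73 and knockouts from 5.55 to 5.98 and did not pass (log2 difference 0.25, SE 0.08, adjusted p = 0.0871, exact permutation p = 0.0317). Without knockout 5 it passed, with a difference of 0.32 (adjusted p = 0.0139). C3ar1 changed by 0.63 more than C5ar1. C5ar2, the decoy-like C5a receptor next to C5ar1 on chromosome 7, differed by 0.10 (95% interval -0.0006 to 0.20, adjusted p = 0.221). Cr2, the receptor of B cells and follicular dendritic cells, and Vsig4, a C3b receptor of some tissue macrophages, lay in the background in both groups (4.26 and 4.29 for Cr2, 4.09 and 4.06 for Vsig4).

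Of the 9 inhibitors, the secreted proteins Cfi, Serping1 and Clu rose, and 1 membrane inhibitor fell. Cfi, the protease that inactivates C3b and C4b, went from 6.93, 7.03, 7.04, 6.93 and 6.99 in controls 1 to 5 to 8.66, 8.24, 9.10, 7.98 and 8.02 in knockouts 1 to 5. The controls were tightly grouped and the knockouts were spread over more than a doubling, all above them. The rise was 2.67-fold (95% interval 2.05 to 3.48, log2 difference 1.42, SE 0.18, adjusted p = 6.54e-04). Serping1, the C1 inhibitor that blocks C1r, C1s and the lectin proteases, went from 9.09, 9.32, 9.24, 9.29 and 8.75 to 10.48, 10.64, 10.78, 10.15 and 9.76. Control 5 was the lowest control and knockout 5 the lowest knockout, with no overlap (2.33-fold, 95% interval 1.80 to 3.02, log2 difference 1.22, SE 0.17, adjusted p = 0.00144). Clu, or clusterin, a secreted chaperone that inhibits the terminal complex and is known as a marker of tubular injury, went from 9.91, 9.95, 9.89, 9.87 and 9.93 to 10.87, 10.77, 10.93, 10.51 and 10.50. Knockouts 4 and 5 again lay nearest to the controls (1.75-fold, 95% interval 1.55 to 1.97, log2 difference 0.80, SE 0.08, adjusted p = 1.97e-04). C4bp, the soluble C4b-binding inhibitor, was in the background in both groups (3.87 and 3.89).

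Of the membrane inhibitors, Cd59a, which blocks the attack complex on the body's own cells, fell. Controls 1 to 5 measured 9.9997, 10.05, 10.10, 10.13 and 9.94, and knockouts 1 to 5 measured 9.72, 9.94, 9.76, 9.92 and 9.82. The groups touched without overlapping, and the knockouts were at 86.2% of the control level (95% interval of the ratio 0.795 to 0.934, log2 difference -0.21, SE 0.05, adjusted p = 0.0289, exact permutation p = 0.00794, the smallest that 5 against 5 can give). The call was lost without control 2, 3 or 4 or knockout 1 or 3 (adjusted p = 0.0541 to 0.0752) and with array medians set equal (adjusted p = 0.0834). Its paralogue Cd59b, 9962 bases away on chromosome 2, differed by -0.09 (95% interval -0.18 to -0.01, adjusted p = 0.186), and signal shared between the pair is possible. Cr1l (Crry), the main membrane inhibitor of C3 convertases in rodents, measured 8.78 ± 0.05 and 8.80 (log2 difference 0.02, 95% interval -0.07 to 0.10). Cd55, which speeds the decay of the convertases, differed by 0.11 (95% interval -0.04 to 0.26), and Cd46, a cofactor for Cfi, by -0.14 (95% interval -0.34 to 0.05). Cd46 and Cr1l adjoin on chromosome 1, beside Cr2, and none of these neighbours passed.

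The 13 members that rose had similar, though not identical, orders among the knockout kidneys. How many of all rising genes had a like order was not computed, so whether it is particular to these members is not known. The arrays as a whole differed alike, with the mean correlation with controls highest for knockout 5 (0.9962) and lowest for knockout 3 (0.9927). Knockout 5 had the lowest value of the knockouts for 10 of the 13 and knockout 4 for the other 3, while knockout 3 was the highest for 8 and knockout 1 for 5. The median of the 13 genes lay 0.96, 0.93, 1.04, 0.59 and 0.43 log2 units above the control mean in knockouts 1 to 5. Stk11 measured 9.12, 9.21, 9.07, 9.21 and 9.31 in the same kidneys. Knockout 5, with the smallest complement rise, had the highest Stk11 value. Knockout 3, with the largest rise, had the lowest. Knockouts 2 and 4 had nearly the same Stk11 value (9.2089 and 9.2075), with rises of 0.93 and 0.59. Whether Stk11 and the rise go together was not tested. With 5 knockouts no correlation was computed.

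**Figure D3:**
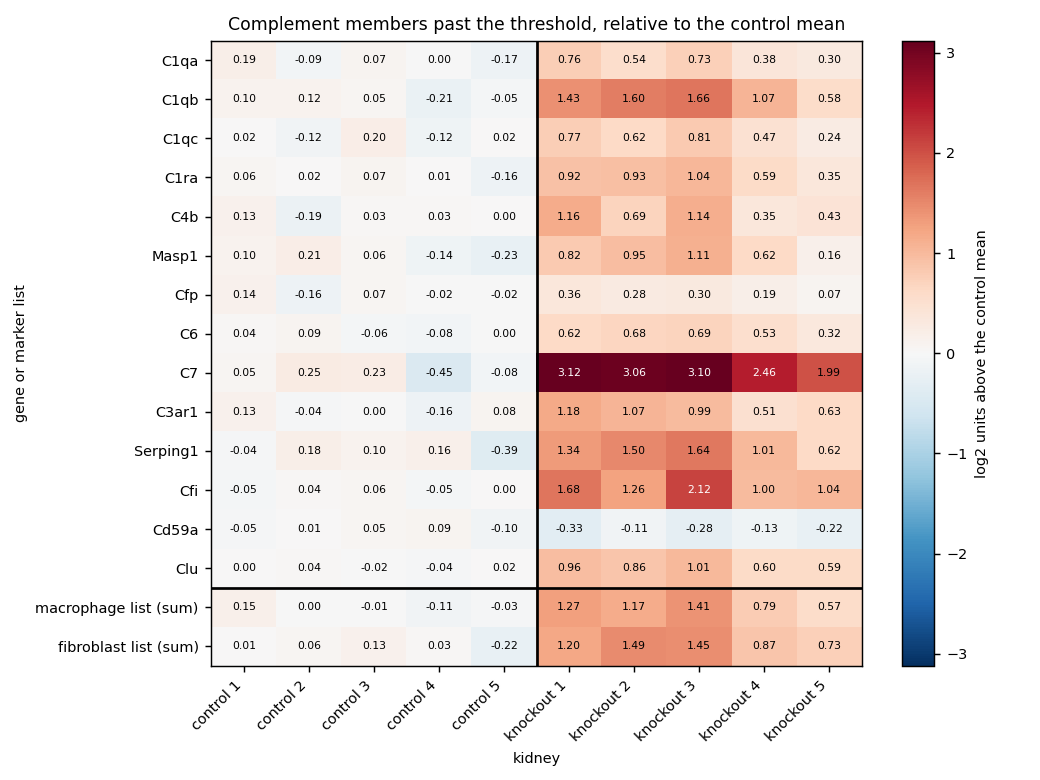
Each cell gives a kidney's log2 value minus the mean of the 5 controls, for the complement members that rose or fell (upper rows) and for the summed signal of the macrophage and fibroblast marker lists (lower rows). Knockouts 4 and 5 are the palest knockouts for most members that rose, and both marker sums are lowest in knockout 5 among the knockouts. The sums of the neutrophil, adipocyte and endothelial lists, not drawn, were lowest in knockout 5 too.

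Markers of other cells moved with these genes. Of 16 macrophage markers 15 rose and 0 fell (median log2 difference 0.77), led by Lyz2 and Mpeg1 (2.38 and 1.47), and none lay in the background in both groups. Their summed linear signal ranged from 1780 to 2140 in controls and from 2850 to 5090 in knockouts, lowest in knockout 5. All 9 measured fibroblast markers rose, led by Dpt and Lum (2.41 and 1.52, with Lum in the background in the controls), and their sum ranged from 2150 to 2740 and from 4170 to 7020, again lowest in knockout 5. The part of these cells in the complement values was not tested. Of 11 hepatocyte markers 2 rose, Fgb and Fga (1.10 and 0.91), whereas Alb differed by -0.15 and Ahsg and Cps1 lay in the background. Cyp2e1, Apob and Ttr gave strong signals (control means 12.27, 10.29 and 9.63) and did not pass. The sums of this list overlapped (7220 to 9910 and 7450 to 9990), and Cyp2e1, its brightest gene, weighs most in them. None of 8 neutrophil, 7 B cell, 8 adipocyte, 7 endothelial or 4 podocyte markers passed by limma, with 2, 1, 1, 1 and 0 at an unadjusted p under 0.05. Over all 30142 genes, 3295 were higher and 3632 lower at that unadjusted p of limma. Within these lists 3 neutrophil markers (S100a8, Elane and Retnlg), 2 B cell markers (Ms4a1 and Fcer2a) and 1 adipocyte marker (Lep) lay in the background in both groups. The knockout sums of the neutrophil, adipocyte and endothelial lists were also lowest in knockout 5. For the B cell and hepatocyte lists knockout 4 was lowest, and for the podocyte and both tubule lists knockout 3 was. Among proximal tubule markers 4 of 8 fell, led by Slc5a2 (-0.46), and among distal tubule and collecting duct markers 5 of 8 fell and 1 rose, with Slc26a4 at -1.13 and Aqp2 at 0.94.

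Other genes of the pathway, listed apart from the 39 members, were tested in the same fit. This list was also chosen with earlier results of these data known, so it is no independent check. Of 22 listed genes 20 were measured, and 6 rose, 0 fell and 14 did not pass (30.0% higher, against 5.35% of all genes). Besides C1rb and C4a, which can share signal with C1ra and C4b, these were subunits of complement receptor CR3, a collectin and an inhibitor. Itgam, the alpha chain of CR3 that binds iC3b on phagocytes, went from 5.88, 5.72, 5.76, 5.62 and 5.73 in controls 1 to 5 to 6.93, 6.79, 6.88, 6.38 and 6.14 in knockouts 1 to 5, without overlap (1.84-fold, SE 0.13 in log2 units, adjusted p = 0.00204). Its partner chain Itgb2 rose 1.43-fold (adjusted p = 0.0123), with knockout 5 just below control 1, and the alpha chain of CR4, Itgax, did not pass (log2 difference 0.32, adjusted p = 0.112). Colec12, a membrane collectin, rose 1.73-fold (adjusted p = 0.0151), again with knockout 5 among the controls. Csmd1, a large membrane protein that inhibits complement, rose 1.14-fold (adjusted p = 0.0254), a call lost without control 1 or 4 or knockout 1, 2 or 3 (adjusted p = 0.0595 to 0.0713). Cd93, once described as a C1q receptor, differed by 0.35 (adjusted p = 0.109), and the soluble regulators Vtn and Cpn1, the latter the enzyme that trims anaphylatoxins, by 0.01 and 0.03. The pentraxins Ptx3, Apcs and Crp, which can bind C1q, also did not pass (-0.04, -0.14 and 0.10), with Apcs and Crp in the background.

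**Figure D4:**
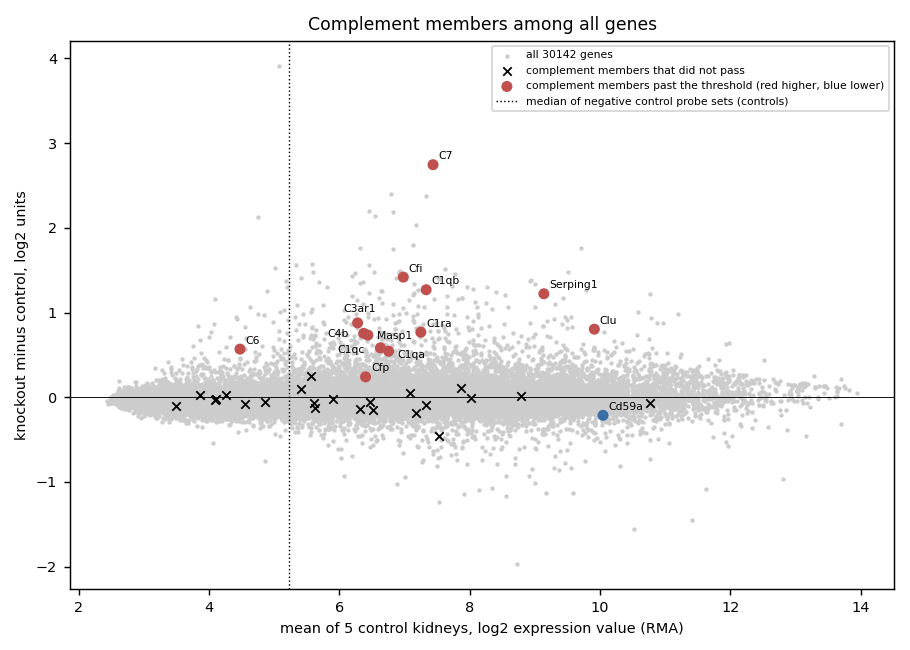
Knockout minus control difference in log2 units (vertical axis) against the control mean (horizontal axis, log2 expression value) for 30142 genes in grey, with complement members that rose in red, that fell in blue and that did not pass as crosses. The dotted line marks the negative-control median (5.23). C7 lies at 2.75 and the crosses between -0.45 and 0.25.

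Where the groups were compared without a model, all 5 knockouts exceeded all 5 controls for 11 of the 37 members, against 5.07% of all genes, and these 11 were among the 13 that rose. The precision of every value is limited by the number of arrays, 5 per group.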

How the data were processed

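The deposited log2 values were made by the authors with RMA on build mm10, per the submitters' processing notes, and the sources used here name no version or filter. The log2 scale was read from the values. Of 72688 rows, 30604 had a single symbol in the platform annotation (827 updated through Entrez identifiers), 2146 several and 39938 none. Rows of a gene were averaged, giving 30142 genes. Coordinates and promoters are RefSeq GRCm38.p6, which is mm10.

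Knockouts were compared with controls in limma 3.58.1 (R 4.3.3; lmFit, eBayes with a mean-variance trend), adjusted by Benjamini-Hochberg over all genes, after tests on simulated data. All tests were two-sided. Nothing in the labels numbers kidneys across groups by litter or day. Members in the background in both groups got no fold. Named genes were all members past the threshold, with other members and markers by arm or list. Members, arms and lists were chosen with earlier results of these data known. Python 3.11.15 and matplotlib 3.10.9 were used.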

Additional observations from a re-analysis of the deposited data

Results flagged for a closer look

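In 116 checks of a group of 5 kidneys, over the members, Stk11 and the other pathway genes, 3 had a kidney far from the rest, where chance gives about 1 in 20. C1ra in the controls had control 5 at 7.09 against 7.26 to 7.32 for the others (gap over range 0.746). C1rb, which can share signal with C1ra, had the same kidney low, at 7.07 against 7.28 to 7.33 (0.807). Cpn1 had control 1 at 9.12 against 9.90 to 10.13 (0.772).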

How the results depend on the processing

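Across 17 alternatives, including each of the 10 kidneys left out in turn, the differences of Stk11, of the 14 members that rose or fell and of the 6 other pathway genes that rose kept their direction (the other members were followed only through the counts, apart from C5ar1, C8a, Fcna and C2), and 12 of the 14 members kept their call wherever they were tested. The exceptions were Cfp and Cd59a, given with their values above. The count of members that rose ranged from 12 to 14. The count that fell was 1, and 2 after quantile normalisation (with Fcna), 2 with the replicate block (with C8a), and 0 to 2 with a kidney left out. With the replicate number as a block, 14 members rose, C5ar1 being the addition (adjusted p = 0.0366), and C8a passed as a fall (adjusted p = 0.0372); the numbers were not taken as pairing the kidneys, since deviations of same-numbered kidneys correlated at 0.25, 0.312, 0.103, -0.078 and 0.194 for numbers 1 to 5, and controls 1, 2 and 5, but not 3 and 4, correlated best with the knockout of their own number. Over all genes, 806 fell, against 437 to 1470 with a kidney left out (1470 without knockout 5) and 1299 after quantile normalisation. Removing genes in the background left 29 members, and C6 was not among them. The count of other pathway genes that rose ranged from 5 to 8 around 6, and 0 fell throughout. Besides C6, 7 members lay in the background in both groups, where a log2 difference may understate a change in level.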
